A study of Mus musculus with 8 samples.

Results

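Cytochrome P450 genes of families 1 to 4 were measured in the intestine of mice that had received Klebsiella or Lactobacillus. The genes were taken by name: Cyp, a family number of 1 to 4, 1 letter and a number, with nothing after it and with pseudogenes left out. This gave 75 of 49585 gene identifiers, with 3 genes in family 1, 48 in family 2, 7 in family 3 and 17 in family 4. Levels are in FPKM, in which reads are divided by the length of the gene and the size of the library, so they can be compared between genes. Of the 75 genes, 27 had a mean of at least 0.5 FPKM over the 8 libraries and are called expressed here. Another 30 were above 0 in at least 1 library but under that mean, and 18 were listed at 0 in all 8. Cyp2t4, with a mean of 0.576 FPKM, lay just inside the minimum, and Cyp3a25, with 0.492 FPKM, just outside it.

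The samples were whole intestinal tissue of C57BL/6 mice, 4 Klebsiella recipients and 4 Lactobacillus recipients, with 1 library per mouse. Both names are genera of gut bacteria; the sources used here do not say how they were given, how old the mice were or which stretch of intestine was taken, and no mice without either bacterium were analysed here. Reads in genes came to between 15753959 and 19166221 in Klebsiella libraries and between 15975491 and 21548070 in Lactobacillus libraries. The tissue label was checked against marker genes. The epithelial gene Epcam was at 611 to 689 FPKM in all 8 libraries, and Car4 and Slc26a3, which mark absorptive cells of the colon surface, were at 203 FPKM or more and 97.7 FPKM or more. Of 8 small intestine genes, Fabp1, Apoa4 and Lct were at most 0.444 FPKM in any library, Mttp was at 0.897 to 1.59 FPKM, Ada at 2.90 to 8.04 FPKM and Apob at 7.18 to 27.2 FPKM. Slc10a2, the ileal bile acid transporter, was at 6.09 FPKM in Klebsiella mouse 3 and 6.00 FPKM in Lactobacillus mouse 2 and at most 1.15 FPKM in the other 6, and Alpi, an intestinal phosphatase, at 5.35 and 3.18 FPKM in the same 2 mice and at most 1.49 FPKM in the others. In bulk tissue, fewer cells of a type and less RNA per cell cannot be told apart.

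Cytochrome P450 enzymes are haem proteins of the endoplasmic reticulum that insert an oxygen atom into their substrate, with electrons passed on by P450 oxidoreductase. Families 1 to 3 are best known for oxidising drugs, plant compounds, steroids and polyunsaturated fatty acids, and family 4 for hydroxylating fatty acids and eicosanoids near the end of their chain. In the gut they meet food and bacterial compounds before the liver does, and their genes answer to receptors such as the aryl hydrocarbon receptor and the pregnane X receptor.

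Many of the genes lie in clusters of near relatives. Expressed members are counted here by chromosome, which may hold several clusters as well as lone genes. On chromosome 19, 4 of 15 members were expressed, all of the Cyp2c subfamily. On chromosome 15, 6 of 8 were expressed, all Cyp2d, and on chromosome 17, 5 of 9, all Cyp4f. On chromosome 4, 3 of 15 were expressed and on chromosome 7, 5 of 15. Family 1 had no expressed member among 3, and family 3 had 1 of 7.

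Cyp2c55, Cyp2c65, Cyp2c66 and Cyp2c68 lie in the Cyp2c cluster of chromosome 19, where the first 3 are adjacent members and 4 other members lie between Cyp2c66 and Cyp2c68. The first 3 were highest in the same 2 mice, 1 of each group, and Cyp2c68 was not, as given further on. The 250 bases before the start of each are shown so that their upstream regions can be set beside those values. They come from RefSeq on GRCm38.p6: chr19:39006769-39007018 (+ strand) for Cyp2c55, chr19:39060756-39061005 (+ strand) for Cyp2c65, chr19:39113648-39113897 (+ strand) for Cyp2c66 and chr19:39741102-39741351 (- strand) for Cyp2c68. Capitals mark CAAAGTCC, the first 8 letters of a motif of the liver and gut factor HNF4, and the TATA box letters TATAAA. Other motifs are left in lower case.
Cyp2c55: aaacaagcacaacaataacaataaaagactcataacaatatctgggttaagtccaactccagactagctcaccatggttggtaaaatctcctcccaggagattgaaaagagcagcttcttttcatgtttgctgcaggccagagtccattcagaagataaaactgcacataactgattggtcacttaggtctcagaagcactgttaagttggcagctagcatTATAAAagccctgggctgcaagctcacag
Cyp2c65: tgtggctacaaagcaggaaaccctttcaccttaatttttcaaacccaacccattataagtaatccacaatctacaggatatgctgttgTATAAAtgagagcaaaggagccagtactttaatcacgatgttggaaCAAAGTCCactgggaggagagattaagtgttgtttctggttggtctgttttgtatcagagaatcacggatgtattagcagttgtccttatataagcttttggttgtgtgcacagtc
Cyp2c66: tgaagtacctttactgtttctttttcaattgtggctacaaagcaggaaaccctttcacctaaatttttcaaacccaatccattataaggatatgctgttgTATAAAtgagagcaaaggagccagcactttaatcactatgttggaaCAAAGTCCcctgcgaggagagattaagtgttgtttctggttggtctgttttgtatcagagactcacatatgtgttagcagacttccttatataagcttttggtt
Cyp2c68: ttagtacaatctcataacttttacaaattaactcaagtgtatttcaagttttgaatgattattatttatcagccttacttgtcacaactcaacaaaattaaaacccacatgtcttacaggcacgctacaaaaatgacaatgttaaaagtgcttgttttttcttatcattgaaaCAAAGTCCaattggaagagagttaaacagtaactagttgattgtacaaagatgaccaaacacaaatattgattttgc

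In these windows, TATAAA began 29 bases before the start of Cyp2c55, 162 before Cyp2c65 and 150 before Cyp2c66, and CAAAGTCC began 116 bases before Cyp2c65, 104 before Cyp2c66 and 77 before Cyp2c68. The windows of Cyp2c65 and Cyp2c66 were 74.6% identical over their alignment, and the other pairs 49.2% to 54.9%. Counting both strands, CAAAGTCC was found in 1.22% of all 27025 promoters of that length, in 12 of the 62 member promoters in the table and in 4 of the 23 of expressed members. The longer form CAAAGTCCA, which contains it, was in 0.381% of all promoters and in 8 of the 62. TATAAA was in 13.0% of all promoters and in 24 of the 62. GCGTG, the core of the aryl hydrocarbon receptor motif, was in 28.2% of all promoters and in 12 of the 62. GTTAAT, part of the HNF1 motif, was in 6.52% and in 8 of the 62, and GCNATAAA, a CDX2 motif, in 2.38% and in 2 of the 62. Members of a cluster share ancestry, so these matches are not independent of each other, and they are descriptions of letters only.

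Taken over all 75 genes, 1 gene held most of the summed level in some libraries and little in others. The sum was 443, 921, 1260.5 and 435 FPKM in Klebsiella mice 1 to 4, and 657, 1095, 577 and 1192 FPKM in Lactobacillus mice 1 to 4. Cyp2c55 supplied 29.7%, 49.3%, 58.3% and 7.89% of that in Klebsiella mice and 41.8%, 52.2%, 23.1% and 34.4% in Lactobacillus mice. The groups overlapped in both measures, and the lowest and highest shares were both in Klebsiella mice. The Cyp4f subfamily was steadier, at 106, 167, 174 and 162 FPKM in Klebsiella mice and 143, 163, 136 and 199 FPKM in Lactobacillus mice. The Cyp2d subfamily summed to 54.9, 142, 116 and 92.7 FPKM in Klebsiella mice, against 93.6, 143, 132 and 325 FPKM in Lactobacillus mice, with its highest value in Lactobacillus mouse 4.

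**Figure D1:**
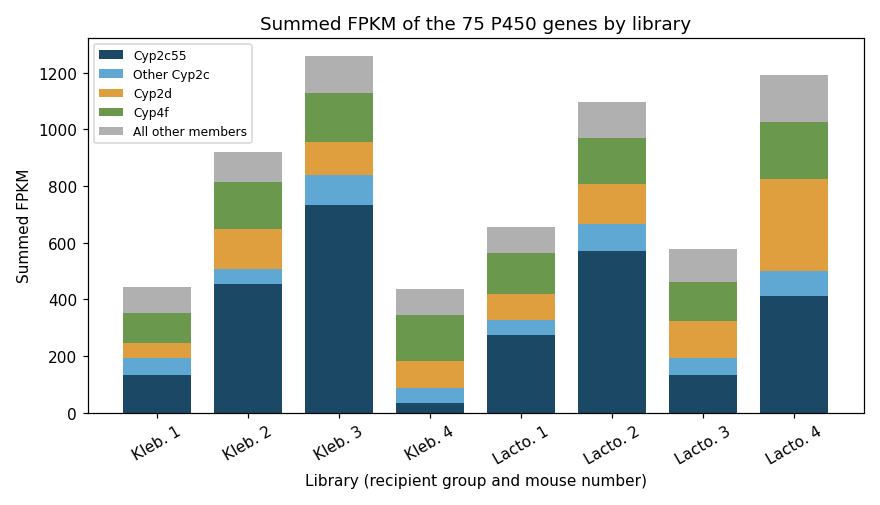
Stacked bars of summed FPKM of the 75 P450 genes (vertical axis) in each library, Klebsiella mice left and Lactobacillus mice right, split into Cyp2c55, other Cyp2c, Cyp2d, Cyp4f and all other members. The Cyp2c55 block ranges from 34.3 FPKM in Klebsiella mouse 4 to 734 FPKM in Klebsiella mouse 3, while the Cyp4f block stays between 106 and 199 FPKM.

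Cyp2c55, an enzyme that oxidises arachidonic acid in mouse, was the most abundant member, with a mean of 343 FPKM over the 8 libraries. It was at 132, 454, 734 and 34.3 FPKM in Klebsiella mice 1 to 4 and at 275, 572, 133 and 410.1 FPKM in Lactobacillus mice 1 to 4. The highest library had 21.4 times the level of the lowest, and both were Klebsiella mice; the Lactobacillus values all lay between them.

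Cyp2c65, its neighbour in the Cyp2c cluster, spread further. It was at 10.5, 12.4, 58.1 and 5.50 FPKM in Klebsiella mice and at 7.35, 45.2, 1.82 and 2.22 FPKM in Lactobacillus mice, resting on 184 to 1828 reads per Klebsiella mouse and 75 to 1723 per Lactobacillus mouse. 1 mouse of each group stood far above its 3 companions. Cyp2c68, another gene of the cluster, was at 46.3, 33.4, 40.3 and 41.5 FPKM in Klebsiella mice and 37.9, 41.7, 51.3 and 80.1 FPKM in Lactobacillus mice, and Cyp2c69 at 2.61 to 5.18 FPKM in Klebsiella mice and 4.16 to 6.25 FPKM in Lactobacillus mice. Neither stood out in the mice where Cyp2c65 was high. Of the 100-base stretches of the Cyp2c69 transcript 36.3% occur in another gene, as do 19.8% for Cyp2c68 and 7.82% for Cyp2c65, so reads may be split between these genes or lost; for Cyp2c55 the share was 0%.

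Cyp4b1, a P450 known best from lung, had the same 2 high mice as Cyp2c65. It was at 3.86, 3.25, 22.3 and 2.87 FPKM in Klebsiella mice and at 4.15, 10.9, 3.07 and 3.20 FPKM in Lactobacillus mice. Cyp2w1, a gene known in human from fetal gut and colon tumours, was at 3.46, 2.01, 4.20 and 0.864 FPKM in Klebsiella mice and at 1.94, 6.93, 3.52 and 2.75 FPKM in Lactobacillus mice, so its high values stood less clear of the others.

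These 2 mice were also those of highest Hoxb6. Hox genes are active in ordered stretches along the gut, and the labels give no position, so no test between positions was made. Position markers enter here only as a description of these 2 libraries beside the other 6, and in 2 alternative fits of the recipient comparison. Hoxb6 was at 2.97, 3.87, 40.2 and 1.16 FPKM in Klebsiella mice and 3.19, 45.2, 1.97 and 2.36 FPKM in Lactobacillus mice. Car1, a carbonic anhydrase of colon epithelium, was at 2342 FPKM in Klebsiella mouse 3 and 2947 FPKM in Lactobacillus mouse 2, and at 195 to 836 FPKM in the other 6. Hoxd13, which marks the end of the gut, had 46.3, 3.25, 2.20 and 8.03 FPKM in Klebsiella mice. In Lactobacillus mice it had 43.9, 19.1, 27.3 and 39.2 FPKM. Each of the same 2 mice had the lowest Hoxd13 of its own group, but the 2 were not both below the other 6.

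Klebsiella mouse 3 and Lactobacillus mouse 2 were both above the other 6 libraries in 4 of 27 expressed members, namely Cyp2c55, Cyp2c65, Cyp4b1 and Cyp2w1, against 5.19% of all 16865 genes at the same minimum. Both were below the other 6 in 0 of 27, against 1.77% of all genes. Among the 30 members under the minimum, both mice were above the other 6 in 4, against 3.54% of all 13004 genes under it, and below them in 2, Cyp2c23 and Cyp2a12, against 1.02%. Cyp3a44 had 83 reads in Klebsiella mouse 3 and 31 in Lactobacillus mouse 2, or 2.59 and 0.799 FPKM, and was listed at 0 in the other 6. Cyp3a25 had 31 and 55 reads in the same 2 mice, or 1.52 and 2.22 FPKM, and at most 3 reads elsewhere. Cyp2c66, whose upstream region resembles that of Cyp2c65, had 13 and 38 reads there and at most 1 elsewhere, and Cyp4a32 had 2 reads and 1. Cyp2c66 shares part of its sequence with Cyp2c65, so its few reads cannot be assigned with certainty. Whether position accounts for any of these levels was not tested.

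**Figure D2:**
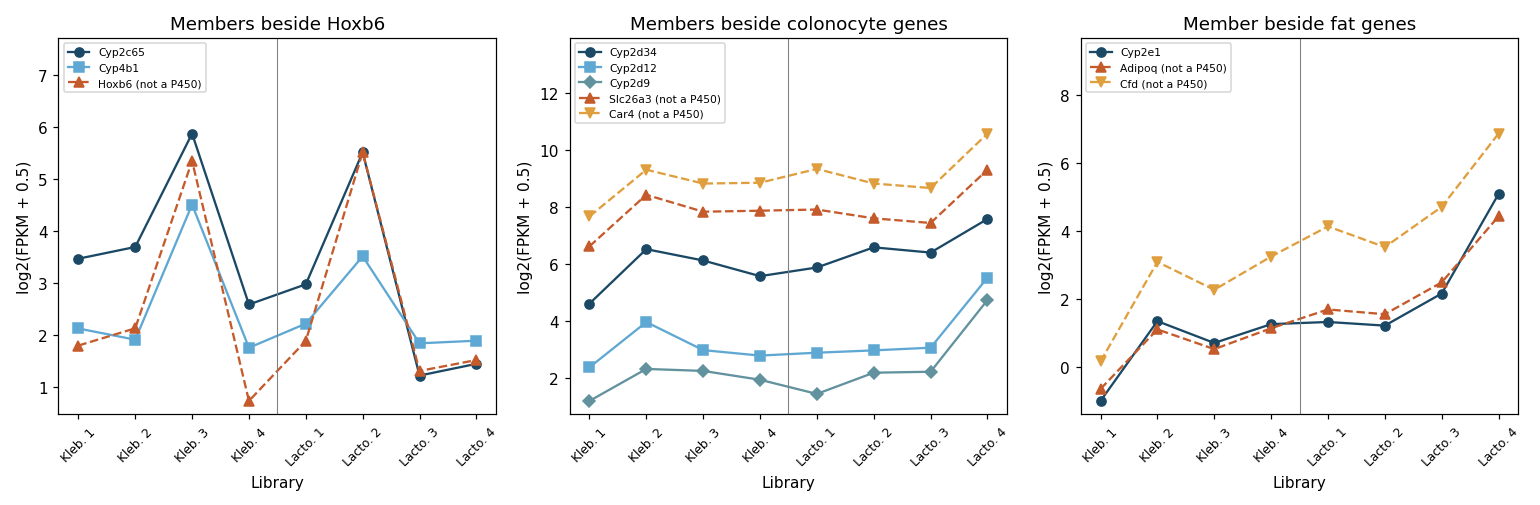
Lines join log2(FPKM + 0.5) (vertical axis) across the 8 libraries, Klebsiella mice left of the grey line and Lactobacillus mice right; solid lines are P450 genes and dashed lines are other genes. Cyp2c65, Cyp4b1 and Hoxb6 peak in Klebsiella mouse 3 and Lactobacillus mouse 2 (left panel). Cyp2d34, Cyp2d12, Cyp2d9, Slc26a3 and Car4 are lowest in Klebsiella mouse 1 and highest in Lactobacillus mouse 4 (middle), and so are Cyp2e1, Adipoq and Cfd (right). Slc26a3 and Car4 come from a list of 12 colon epithelium genes, of which others, such as Aqp8, Krt20, Krt8, Muc2, Vil1 and Cdx2, had other ends.

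A second set of members followed another pair of libraries. Cyp2d34, the most abundant Cyp2d gene, was at 23.9, 91.2, 69.2 and 47.1 FPKM in Klebsiella mice and at 58.3, 95.4, 83.9 and 190.3 FPKM in Lactobacillus mice. Cyp2d12 was at 4.71, 15.1, 7.41 and 6.43 FPKM in Klebsiella mice and at 6.93, 7.36, 7.89 and 45.4 FPKM in Lactobacillus mice. Cyp2d9, known as a testosterone hydroxylase of mouse liver, was at 1.80, 4.51, 4.27 and 3.35 FPKM in Klebsiella mice and at 2.23, 4.07, 4.18 and 26.2 FPKM in Lactobacillus mice. All 3 genes were lowest in Klebsiella mouse 1 and highest in Lactobacillus mouse 4, with the other 6 mice between.

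Cyp2d10 followed the same order at its ends, at 8.16, 10.5, 14.1 and 12.5 FPKM in Klebsiella mice and 9.86, 13.3, 13.9 and 37.7 FPKM in Lactobacillus mice. Cyp2d22 and Cyp2d26 moved less, at 8.26 to 11.7 and 7.43 to 14.9 FPKM in Klebsiella mice and 9.85 to 14.9 and 6.34 to 12.0 FPKM in Lactobacillus mice. The Cyp2d genes resemble each other: 14.8% of the 100-base stretches of Cyp2d10, 9.86% of Cyp2d9, 3.79% of Cyp2d12 and 0.128% of Cyp2d34 occur in another gene. Of these 4, Cyp2d34 shares the least.

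Cyp3a13, the one expressed member of a family known for broad drug oxidation, was at 9.71, 26.4, 28.6 and 16.8 FPKM in Klebsiella mice and at 16.6, 27.6, 16.7 and 39.6 FPKM in Lactobacillus mice. It too was lowest in Klebsiella mouse 1 and highest in Lactobacillus mouse 4. Cyp2e1, the ethanol-oxidising P450 of liver, had the widest spread of any member on the log2 scale. It was listed at 0 in Klebsiella mouse 1, at 2.04, 1.13 and 1.89 FPKM in Klebsiella mice 2 to 4, and at 2.00, 1.82, 3.97 and 33.5 FPKM in Lactobacillus mice, the last from 733 reads. Without Lactobacillus mouse 4 no library had more than 107 reads.

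Over the 27 expressed members, Klebsiella mouse 1 was the lowest of the 8 libraries for 12, against 15.8% of all genes, and Lactobacillus mouse 4 the highest for 13, against 20.6% of all genes. Some genes of surface colonocytes had the same ends and others did not. Slc26a3, the chloride exchanger of these cells, was at 97.7, 343, 227 and 233 FPKM in Klebsiella mice and 239.7, 193, 173 and 630.4 FPKM in Lactobacillus mice, and Car4 at 203 to 631 FPKM in Klebsiella mice and 404 to 1517 FPKM in Lactobacillus mice. Aqp8, a water channel of these cells, was highest in Lactobacillus mouse 4 at 390.0 FPKM but lowest in Lactobacillus mouse 3 at 59.5 FPKM. Krt20, a keratin of mature cells, was lowest in Klebsiella mouse 1 at 66.3 FPKM but highest in Klebsiella mouse 3 at 243 FPKM. Other colon epithelium genes ran the other way. Krt8 was highest in Klebsiella mouse 1 at 2928 FPKM and lowest in Lactobacillus mouse 4 at 1857 FPKM. Muc2, Vil1 and Cdx2 were also lowest in Lactobacillus mouse 4, at 1159, 382 and 24.5 FPKM. The whole list of 12 colon epithelium genes summed to 7762 to 9856 FPKM in Klebsiella mice and 6044 to 7883 FPKM in Lactobacillus mice.

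Fat cell genes had the same ends as well, except Fabp4, which was lowest in Klebsiella mouse 4 at 11.3 FPKM. Fabp4 was at 20.04 FPKM in Klebsiella mouse 1 and highest in Lactobacillus mouse 4 at 35.9 FPKM. Lep was listed at 0 in Klebsiella mice 1 to 3 alike. The 8 genes of the adipocyte list summed to 22.4 to 35.5 FPKM in Klebsiella mice and 45.2 to 299 FPKM in Lactobacillus mice, with the lowest sum in Klebsiella mouse 1 and the highest in Lactobacillus mouse 4. Adipoq, which defines the cell type, was at 0.138, 1.65, 0.937 and 1.70 FPKM in Klebsiella mice and 2.73, 2.43, 5.10 and 21 FPKM in Lactobacillus mice. Of the hepatocyte genes, Fga was listed at 0 in every library, Fgb was at no more than 0.0137 FPKM and Alb was at 0.675 to 2.37 FPKM. The hepatocyte list summed to 30.9 to 47.9 FPKM in Klebsiella mice and 40.0 to 76.0 FPKM in Lactobacillus mice, mostly from Ttr and Tat. Tat had the same ends, at 4.69 FPKM in Klebsiella mouse 1 and 21.03 FPKM in Lactobacillus mouse 4. Ttr was also highest in Lactobacillus mouse 4, at 53.1 FPKM, but lowest in Klebsiella mouse 3, at 20.4 FPKM. The part of fat tissue, of surface colonocytes or of hepatocytes in the P450 levels was not tested.

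**Figure D3:**
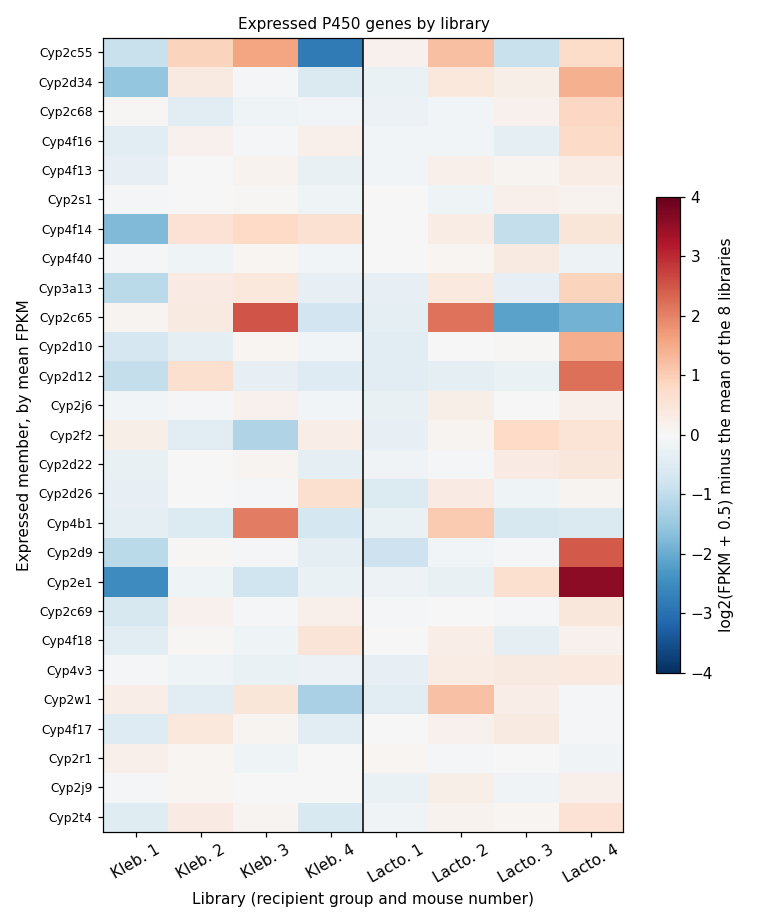
Each cell is log2(FPKM + 0.5) of an expressed member minus its mean over the 8 libraries (colour scale), with genes down the side in order of mean FPKM and Klebsiella libraries left of the black line. Lactobacillus mouse 4 is the highest library for 13 of the 27 genes and Klebsiella mouse 1 the lowest for 12, while Cyp2s1, Cyp4f40, Cyp2j6 and Cyp2r1 stay near their mean.

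The family 4 genes of abundance above 20 FPKM were all Cyp4f, whose products hydroxylate leukotrienes and other fatty acids. Cyp4f16 was at 32.4, 49.7, 42.2 and 51.2 FPKM in Klebsiella mice and at 41.5, 40.9, 34.0 and 75.2 FPKM in Lactobacillus mice. Cyp4f13 was at 35.4, 44.6, 49.3 and 36.2 FPKM in Klebsiella mice and at 41.6, 51.1, 48.0 and 55.1 FPKM in Lactobacillus mice. The 2 groups overlapped for both, and the highest library had 2.32 times the lowest for Cyp4f16 and 1.56 times for Cyp4f13.

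Cyp4f14, a leukotriene hydroxylase in mouse, differed from its neighbours by 2 low libraries. It was at 7.98, 42.2, 48.9 and 42.9 FPKM in Klebsiella mice and at 27.6, 34.9, 14.4 and 39.4 FPKM in Lactobacillus mice. Cyp4f40 kept between 22.9 and 26.9 FPKM in Klebsiella mice and between 22.0 and 32.8 FPKM in Lactobacillus mice. Cyp4f18, known from neutrophils in mouse, was at 2.86 to 5.94 FPKM in Klebsiella mice and 2.92 to 4.94 FPKM in Lactobacillus mice.

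The steadiest of the abundant members was Cyp2s1, a P450 of epithelia outside the liver and a target of the aryl hydrocarbon receptor. It was at 41.1, 43.2, 44.8 and 38.1 FPKM in Klebsiella mice and at 43.6, 38.1, 49.1 and 46.9 FPKM in Lactobacillus mice, so the highest library had 1.29 times the lowest. Cyp2j6, of an epoxygenase subfamily, was at 11.5 to 14.1 FPKM in Klebsiella mice and 10.2 to 14.8 FPKM in Lactobacillus mice. Cyp2r1, a vitamin D hydroxylase, was at 1.92 to 2.68 FPKM in Klebsiella mice and 1.97 to 2.37 FPKM in Lactobacillus mice. Also low among the expressed members were Cyp4f17, at 1.76 to 3.81 FPKM in Klebsiella mice and 2.63 to 3.66 FPKM in Lactobacillus mice, Cyp2j9, at 1.83 to 2.05 FPKM in Klebsiella mice and 1.5 to 2.34 FPKM in Lactobacillus mice, and Cyp2t4, at 0.185 to 0.803 FPKM in Klebsiella mice and 0.441 to 1.06 FPKM in Lactobacillus mice. Of the 27 expressed members 10 overlap another annotated gene, such as Cyp2t4 with Egln2 and Cyp4f18 with Zfp961 on the other strand; strand use in counting is not stated, so their reads may include the partner's. Cyp2f2, known for naphthalene oxidation in lung, was less even, at 12.5, 7.74, 4.36 and 12.7 FPKM in Klebsiella mice and 8.29, 11.4, 18.9 and 15.8 FPKM in Lactobacillus mice.

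The classic aryl hydrocarbon receptor targets of family 1 were close to the floor. Cyp1a1 had 25, 2, 3 and 8 reads in Klebsiella mice, or 0.596, 0.0392, 0.0692 and 0.173 FPKM, and 6, 7, 22 and 4 reads in Lactobacillus mice, or 0.141, 0.133, 0.383 and 0.0858 FPKM. Cyp1b1 was at most 0.108 FPKM and Cyp1a2 was listed at 0 in all 8 libraries. The receptor itself was present, with Ahr at 12.3 ± 1.21 FPKM in Klebsiella mice and 13.3 ± 1.24 FPKM in Lactobacillus mice (SD, n = 4 each). The 48 members under the minimum reached at most 2.59 FPKM in any library, the value of Cyp3a44 above. With so few reads, a difference in most of them cannot be shown at this depth. Cyp2j13 was at 0.122 to 0.444 FPKM in Klebsiella mice (4 to 15 reads) and 0.0223 to 0.0904 FPKM in Lactobacillus mice (1 to 3 reads). Its groups did not overlap. The share of all genes under the minimum with no overlap was not computed, so that of Cyp2j13 is not read as a difference. In the fit without a minimum it was not called (unadjusted p 0.0189, adjusted p 0.856 by limma).

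The comparison of recipients asked whether any P450 gene differed between Klebsiella and Lactobacillus mice, and none passed the test. By limma on log2(FPKM + 0.5), 0 of 27 members had a Benjamini-Hochberg adjusted p under 0.05, against 0% of all 16865 genes tested, and the smallest adjusted p of a member was 0.774. An unadjusted p under 0.05 was found for 0 of 27 members and for 6.07% of all genes, and the 2 groups did not overlap for 0 of 27 members and 2.99% of all genes. Voom on the recovered reads called 0 members too, with 1 at an unadjusted p under 0.05.

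The members that came nearest were lower in Klebsiella mice. Cyp4v3, the mouse counterpart of a human fatty acid hydroxylase active in the eye, was at 2.93, 2.71, 2.53 and 2.59 FPKM in Klebsiella mice and at 2.43, 4.01, 4.22 and 4.30 FPKM in Lactobacillus mice. Lactobacillus mice 2 to 4 were above every Klebsiella mouse and Lactobacillus mouse 1 below them all; the log2 difference was -0.38 (SE 0.183; adjusted p 0.774 by limma). Cyp2d34 averaged 57.9 ± 28.9 FPKM in Klebsiella and 107 ± 57.7 FPKM in Lactobacillus mice (SD, n = 4 each). On the log2 scale it differed by -0.90 (SE 0.452; adjusted p 0.774 by limma), and by -0.54 without Klebsiella mouse 1 and -0.58 without Lactobacillus mouse 4.

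Cyp2e1 averaged 1.27 ± 0.934 FPKM in Klebsiella and 10.3 ± 15.5 FPKM in Lactobacillus mice (SD, n = 4 each). On the log2 scale it differed by -1.87 (SE 0.876; adjusted p 0.774 by limma). Without Lactobacillus mouse 4 it was -0.99. Cyp4f13, Cyp2d22, Cyp2f2, Cyp2c68 and Cyp2d10 had log2 differences of -0.25, -0.30, -0.57, -0.33 and -0.53, with limma adjusted p between 0.774 and 0.782. None of these 5 passed the test. Without Lactobacillus mouse 4 the value was -0.11 for Cyp2c68 and -0.135 for Cyp2d10, and without Klebsiella mouse 3 it was -0.265 for Cyp2f2.

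**Figure D4:**
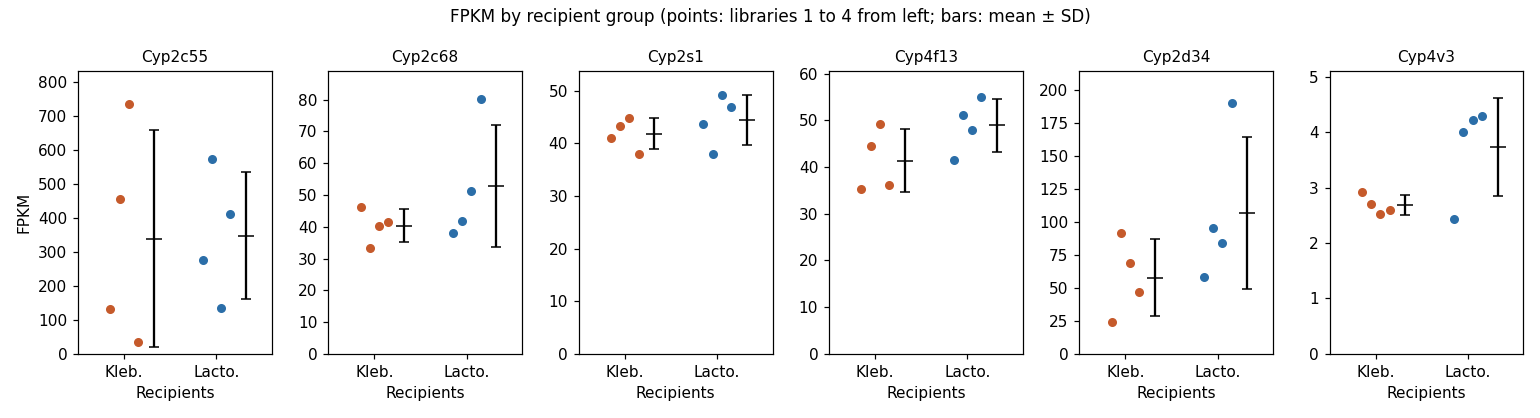
FPKM (vertical axis, starting at 0) of 6 members, with 1 point per mouse, Klebsiella mice left and Lactobacillus mice right, and bars for the mean ± SD (n = 4 each). The groups overlap in every panel; Cyp2c55 spans 34.3 to 734 FPKM within Klebsiella mice, while Cyp2s1 spans 38.1 to 49.1 FPKM over all 8.

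The most abundant member did not pass either. Cyp2c55 averaged 339 ± 319 FPKM in Klebsiella and 347 ± 187 FPKM in Lactobacillus mice (SD, n = 4 each). The log2 difference was -0.62 (SE 0.892; adjusted p 0.892 by limma). It was 0.21 without Klebsiella mouse 4, -1.25 without Klebsiella mouse 3, -1.02 without Klebsiella mouse 2 or Lactobacillus mouse 3, and -0.32 without Lactobacillus mouse 2. Cyp2c65 had the largest positive value, with 21.7 ± 24.5 FPKM in Klebsiella and 14.1 ± 20.8 FPKM in Lactobacillus mice (SD, n = 4 each). The log2 difference was 1.12 (SE 0.998; adjusted p 0.814 by limma). It came to 0.04 in a fit that also held Hoxd13, on the log2 scale, and to 1.37 once the 2 mice of highest Hoxb6 were left out. It was 0.46 without Klebsiella mouse 3, 2.03 without Lactobacillus mouse 2, 0.59 without Lactobacillus mouse 3 and 0.67 without Lactobacillus mouse 4. Hoxd13 itself had a log2 difference of -1.97 between recipients (SE 0.790, adjusted p 0.774 by limma). A fit that holds Hoxd13 therefore cannot fully separate it from the recipient group. Cyp2s1 differed by -0.08 on the log2 scale (SE 0.0995; adjusted p 0.860 by limma), with the smallest SE among the members, and by -0.155 to -0.0338 with each library left out in turn.

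Of the 27 members 22 had a negative log2 difference, against 53.6% of all genes, and 5 a positive one, against 46.4%. Their median was -0.25, against -0.02 over all genes. The count is not made of independent values, since clusters share sequence and libraries: the median was -0.12 without Klebsiella mouse 1 and -0.07 without Lactobacillus mouse 4. The spread between mice can be set beside that of all genes. The median gap between highest and lowest library was 1.20 on the log2 scale, against 0.72 over all genes, and it was over 2 for 10 of 27 members (37.0%), against 6.71% of all genes.

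**Figure D5:**
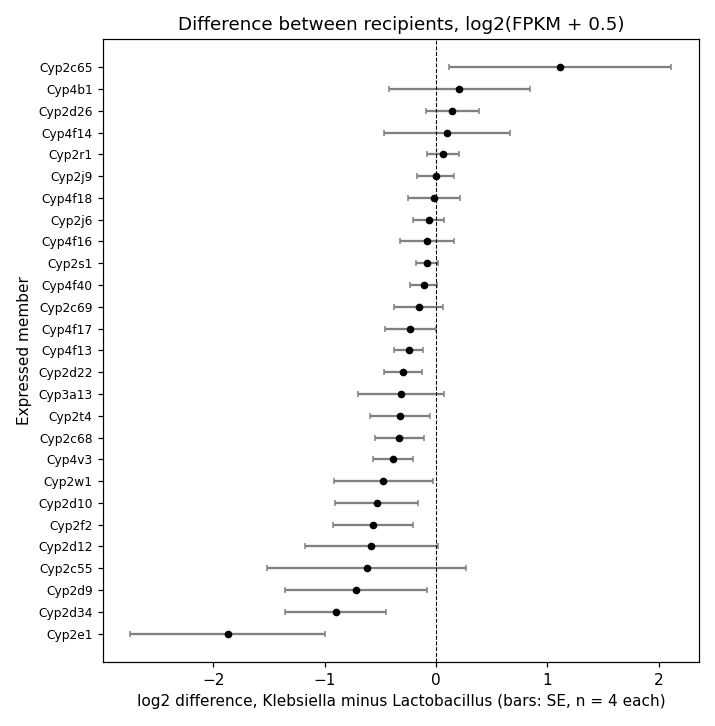
Points are the log2 difference, Klebsiella minus Lactobacillus (horizontal axis), of each expressed member with bars of 1 SE (n = 4 each), sorted from highest at the top. The points run from 1.12 for Cyp2c65 to -1.87 for Cyp2e1, 22 of 27 lie below 0, and none passed the adjusted threshold.

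Genes that work with the P450 enzymes were read from the same fit, and none passed it. Of 8 genes of the aryl hydrocarbon receptor pathway 3 were positive and 5 negative, with a median log2 difference of -0.04. Of 10 nuclear receptors and related factors 5 were positive and 5 negative, with a median of 0.03. Nr1i2, the pregnane X receptor, was at 24.8, 29.6, 32.7 and 24.6 FPKM in Klebsiella mice and 28.1, 38.2, 38.1 and 41.8 FPKM in Lactobacillus mice, with a difference of -0.38 on the log2 scale (SE 0.145; adjusted p 0.774 by limma). Hnf4a, the most abundant of these, had a log2 difference of 0.23 and Vdr, the vitamin D receptor, of -0.33.

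Among 11 electron donors and haem partners 6 were positive and 5 negative, with a median of 0.04. Por, the P450 oxidoreductase, had a log2 difference of 0.12 and Cyb5a, a cytochrome b5, of -0.19. Alas1, which starts haem synthesis, was at 64.0, 62.3, 67.1 and 70.7 FPKM in Klebsiella mice and 58.6, 44.7, 42.5 and 39.6 FPKM in Lactobacillus mice. Alas1 was the 1 gene of these 11 whose groups did not overlap, against 2.99% of all genes. Its log2 difference of 0.52 (SE 0.122) had a limma adjusted p of 0.774.

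Of 9 epoxide and eicosanoid genes 7 were positive and 2 negative, with a median of 0.10. Ptgs2, the inducible prostaglandin synthase, had a log2 difference of 1.23 (SE 0.426). Alox5, the leukotriene-forming lipoxygenase, had 0.62 (SE 0.197), and the limma adjusted p of each was 0.774. The groups did not overlap for 1 of the 9, Alox5, against 2.99% of all genes. The 4 of highest mean level, Pla2g4a, Ephx1, Ptgs1 and Ephx2, had 0.09, 0.14, 0.24 and -0.08. Of 7 P450 genes outside families 1 to 4 that were tested, 4 were positive and 3 negative, with a median of 0.09; Cyp51, of sterol synthesis, had 0.61 and Cyp27a1, of bile acid synthesis, -0.48. All 5 lists had 0 genes past the adjusted threshold.

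The lists for cell types and position had 0 called genes too. All 7 adipocyte genes tested were negative, against 53.6% of all genes, with a median of -1.81. By limma, 6 of the 7 had an unadjusted p under 0.05, against 6.07% of all genes. The groups did not overlap for 3 of the 7, against 2.99% of all genes. The 7 genes share libraries, so these counts are not made of independent values. The medians were -0.31 over 7 pancreatic acinar genes, 0.30 over 8 smooth muscle genes, -0.09 over 7 stromal genes, 0.08 over 7 endothelial genes, 0.03 over 12 colon epithelium genes, 0.22 over 5 small intestine genes, -0.55 over 3 hepatocyte genes and -0.36 over 10 position genes. The part of these cell types in the P450 differences was not tested.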

How the data were processed

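Per the labels' protocols, total RNA was taken with Trizol from frozen intestine and libraries were made with an Illumina TruSeq kit. The submitters' processing notes name STAR 2.5.1b, CASAVA, DESeq2 1.10.1 and HTSeq 0.6.0 without saying what each did. The genome build was not given in the sources used here. Deposited by the authors were FPKM for 49585 identifiers and read counts after their filter of 40455910 to 55447220 per library. Symbols for 49326 identifiers came from GENCODE M21.

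FPKM values are not counts. They were whole multiples of 1 read for all 26963 genes above 0 in at least 2 libraries, to a relative tolerance of 1e-11, which gave the reads quoted. Reads and FPKM cover counting error only. Groups were compared with limma 3.58.1 (R 4.3.3; mean-variance trend, two-sided, Benjamini-Hochberg) on log2(FPKM + 0.5) for 16865 genes with a mean of at least 0.5 FPKM. Differences are Klebsiella minus Lactobacillus and understate low genes; called means an adjusted p under 0.05. The script was tested on simulated data. Alternatives were other pseudocounts, filters and scalings, a robust prior, voom on recovered reads, the mouse number as a block, log2 Hoxd13 as a covariate, and libraries left out. Promoters came from RefSeq.

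Members and lists were chosen with earlier results of these data known. Named members are those of the 20 highest means, the 8 smallest p and the 8 widest ranges; up to 4 genes of each list were named by level. Members under the minimum, Cyp4f17, Cyp4f18, Cyp2r1, Cyp2j9, Cyp2t4, Alas1, Alox5, Ptgs2, Nr1i2, Adipoq and the marker genes were named after their values were seen.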

Additional observations from a re-analysis of the deposited data

Results flagged for a closer look

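In 12 of 54 groups of 4 libraries (22.2%), over 10 members, 1 library stood apart from the other 3. The rule was Dixon's gap ratio on FPKM at its 95% critical value. Its nominal rate of about 1 in 20 holds for normally distributed values, which FPKM need not be. The share over all genes was not computed, so the 12 are not read as an excess. The members share libraries and sequence, so the 12 are not independent.

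In Klebsiella mouse 3, Cyp2c65 was at 58.1 FPKM (5.50 to 12.4 in the other 3 Klebsiella mice), Cyp4b1 at 22.3 FPKM (2.87 to 3.86) and Cyp2j6 at 14.1 FPKM (11.5 to 11.7). In Lactobacillus mouse 2, Cyp2c65 was at 45.2 FPKM (1.82 to 7.35 in the other 3 Lactobacillus mice) and Cyp4b1 at 10.9 FPKM (3.07 to 4.15). These are the 2 mice of highest Hoxb6.

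In Klebsiella mouse 1, Cyp4f14 was at 7.98 FPKM (42.2 to 48.9). In Lactobacillus mouse 4, Cyp2d10 was at 37.7 FPKM (9.86 to 13.9), Cyp2d12 at 45.4 FPKM (6.93 to 7.89), Cyp2d9 at 26.2 FPKM (2.23 to 4.18), Cyp2e1 at 33.5 FPKM (1.82 to 3.97) and Cyp2c69 at 6.25 FPKM (4.16 to 4.34). In Lactobacillus mouse 1, Cyp4v3 was at 2.43 FPKM (4.01 to 4.30).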

How the results depend on the processing

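Called genes numbered 0 among members and among all genes in the main comparison and in all 20 alternatives. Members at an unadjusted p under 0.05 numbered 0 to 4, with 4 under log2 Hoxd13 as a covariate and 4 without Lactobacillus replicate 1. Over all genes that count was 1024, and it was 1693 with Hoxd13, 438 without the 2 libraries of highest Ctrb1, 1825 without Klebsiella replicate 3, 2004 without Lactobacillus replicate 1 and 566 without Lactobacillus replicate 3. The members' median log2 difference ranged from -0.45 to -0.07, all negative. In every alternative 16 of 27 members kept their sign, and 11 had the other sign in at least 1; Cyp2c55 ranged from -1.76 to 0.21. Rescaling moved FPKM by at most 3.52%. Same-numbered mice did not deviate together (r from -0.16 to 0.19, with 2 of 8 libraries correlating best with their own number). These values gave no sign of a pairing by number, but with 4 mice a group they cannot exclude one. With the mouse number as a replicate block 0 members and 0 genes were called by limma. There, 2 members, Cyp2e1 and Cyp2d34, had an unadjusted p under 0.05. With 4 mice a group and this spread, low genes and changes smaller than the spread are beyond the depth and design.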
